A study of Mus musculus with 5 samples.

Results

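Semaphorins, their plexin receptors and the neuropilin co-receptors were followed in olfactory sensory neurons (OSNs) that transcribe the odorant receptor gene Olfr151, at rest and after exposure to an odorant. The genes were taken by name, as all genes whose symbol begins with Sema3 to Sema7 or with Plxn and a class letter from a to d, plus Nrp1 and Nrp2. This gave 34 of the 55411 genes in the count tables, namely 20 semaphorins, 12 genes with a plexin name, of which 3 are antisense genes of Plxna4, and 2 neuropilins. The cells came from the main olfactory epithelium of 7-week-old male mice homozygous for Olfr151(tm26Mom), an allele that labels the Olfr151 neurons with GFP. Both conditions shared this allele, so that no neuron with an unmodified Olfr151 locus was in the comparison. Isolated mice were kept for 5 h with 5% acetophenone dissolved in DMSO (exposed) or with DMSO only (control), and live, nucleated GFP+ cells were then sorted. Control pools 1, 2 and 3 and exposed pools 1 and 3 were analysed, each holding the cells of 4 mice, and exposed pool 2 was not analysed here. The sample description gives 200 cells per pool, as the study's methods do for Olfr151 mice. The deposited protocol gives 400, which is the methods' number for pools of Olfr16 mice.

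Semaphorins are guidance proteins that are secreted (class 3), span the membrane (classes 4, 5 and 6) or sit on it by a lipid anchor (class 7). Most of them signal through plexins, and class 3 proteins usually need a neuropilin next to a class A plexin to do so. In the olfactory system Sema3a with Nrp1 and Sema3f with Nrp2 are known for sorting OSN axons before and in the olfactory bulb, and Sema7a, made by OSNs, is known for activity-dependent synapse formation through Plxnc1 on the dendrites of bulb neurons.

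Each library held 42780403 to 49527380 counts over genes, spike-ins and the reporter together. Pearson's r between pools, over log2 CPM (counts scaled to a fixed library total), was 0.906 to 0.940 for the control pairs, 0.943 for the exposed pair and 0.832 to 0.913 between conditions. Control pool 3 stood nearest to the exposed pools, with r of 0.887 and 0.913. Olfr151 itself, whose locus drives the sorted GFP, had 139703, 150234 and 166294 counts in the controls (pools 1, 2 and 3) and 103864 and 97297 after exposure (pools 1 and 3), so every pool carried the transcript it was sorted for. All 9 mature OSN markers were found, and their summed level was 71630 to 79456 TPM (counts per exon base, scaled to a fixed library total) in control and 58522 to 58939 TPM in exposed pools. Immature OSN markers, 5 of 5 found, summed to 411 to 484 TPM and 547 to 629 TPM, but without Gap43 to 202 to 248 TPM and 201 to 233 TPM. This smaller sum joins opposite directions. Gng8 and Stmn1 had higher TPM in both exposed pools than in any control pool, and Hdac2 and Dpysl5 had lower TPM.

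At rest the plexins held the top of the order (levels per length, in TPM). Plxnb2, a class B receptor of class 4 semaphorins, came first with 139, 217 and 229 TPM in control pools 1, 2 and 3, a mean of 195 ± 48.8 (SD, n = 3). Plxna3 (158 ± 44.8 TPM), Sema7a (144 ± 52.3 TPM) and Plxna4 (142 ± 57.4 TPM) followed, and neighbours among these first 4 genes had overlapping pools. Nrp1 (78.9 ± 1.72 TPM) lay below all of them and varied least, with 80.6, 77.2 and 78.9 TPM. Sema4d, the class 4 ligand of Plxnb1, lay just below Nrp1 at 68.9 ± 5.76 TPM, with no overlap with either neighbour. From Plxna1 (42.3 ± 15.7 TPM) down to Sema4b (8.18 ± 2.62 TPM) each gene overlapped with the next, and Sema4b was above Plxnd1 (2.52 ± 1.76 TPM) in every pool. In all, 14 genes reached 10 TPM in every control pool and 17 reached 1 TPM.

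**Figure D1:**
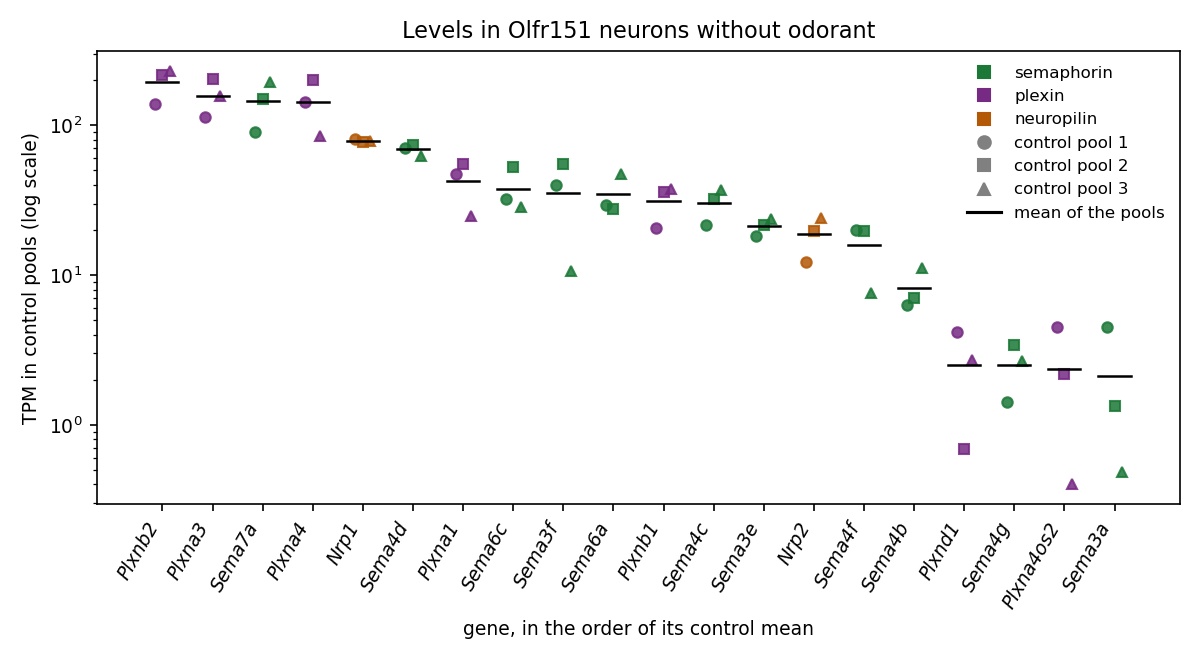
Level of the 20 highest semaphorin, plexin and neuropilin genes in each of the 3 control pools, in TPM on a log axis. Shapes mark the pools, colours the families and black bars the means. Nrp1 and Sema4d have the tightest pools among the first 6 genes, and Sema3f and Sema3a spread widely, with control pool 3 the lowest in both.

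Of the class 3 receptors, Nrp1, Plxna3 and Plxna4 were thus the most abundant at rest, while Sema3a, the best-known secreted ligand of Nrp1, was at 4.48, 1.35 and 0.487 TPM. Ligands that act from the neuron itself were led by Sema7a and Sema4d. The control pools differed from each other more for these genes than for most: the highest pool was 1.78 times the lowest at the median of the 18 genes tested below, against 1.52 times over 9916 genes.

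After exposure, 18 of the 34 genes had enough counts to be tested, which meant that 1 condition or both had 143 counts or more in each of its libraries. Of these, 16 passed through both conditions, Sema3f through the control pools only and Sema3a through the exposed pools only, and the other 16 genes were not tested. Calls were made with edgeR's quasi-likelihood test at a Benjamini-Hochberg adjusted p under 0.1 over all 10024 genes tested and a log2 fold change beyond 0.5. Sema7a and Sema3e rose, 2 of the 18, where 3.43% of all tested genes were called higher. None was called lower, where 1.86% of all tested genes were. At an unadjusted p under 0.05 there were 11 genes of the 18 (19.2% of all tested genes), and DESeq2 called 6 higher and 4 lower (7.24% and 7.66% of all). The pools of the conditions did not overlap for 12 of the 18, against 40.0% of all tested genes, 6 of them higher (20.3% of all genes) and 6 lower (19.6%). Sema3f, which passed only through the control pools, where it was high, is among the 12, the 6 lower, the 11 and the 4 called lower by DESeq2. These counts are therefore a description only. The median log2 fold change was -0.15 for the 18 and -0.03 for all tested genes, and the median size of the change was 0.74 against 0.37.

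**Figure D2:**
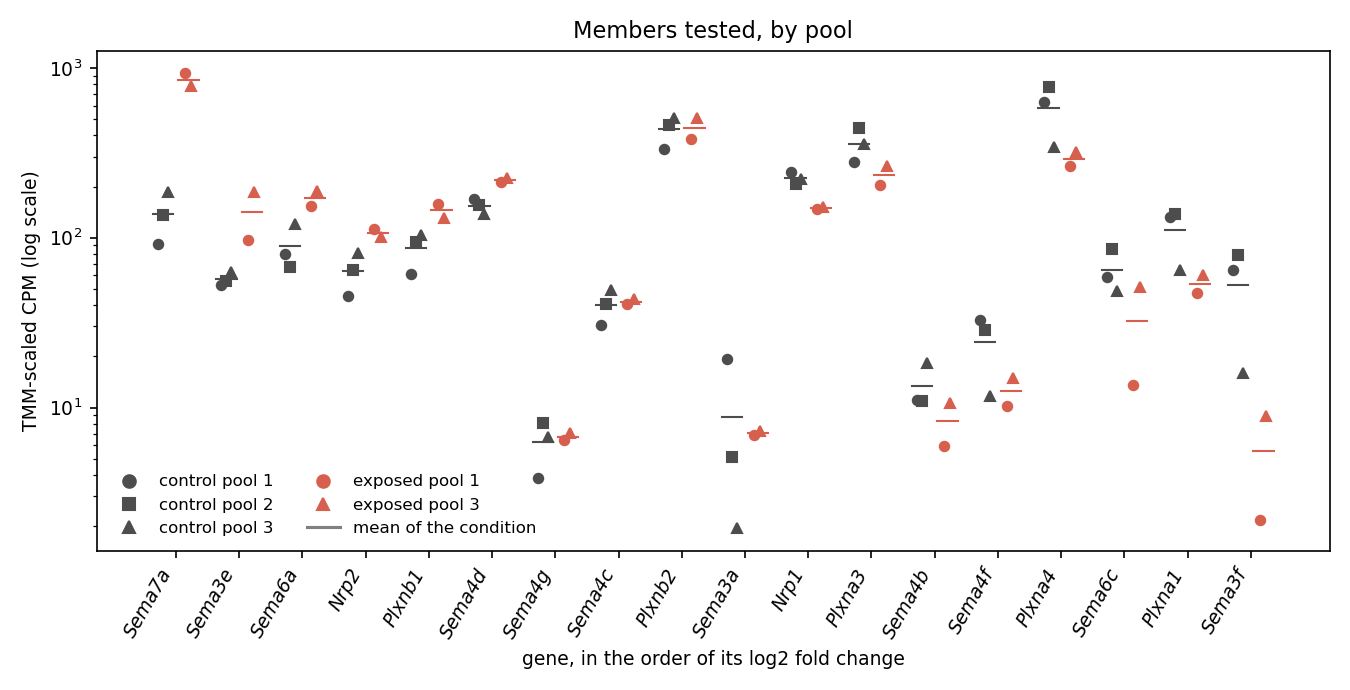
Level of the 18 genes tested in each pool, as CPM scaled between libraries by the trimmed mean of M-values (TMM), on a log axis, in the order of the log2 fold change. Grey points are control pools, red points exposed pools and short lines their means. Sema7a shows the widest gap above the control pools, and in Plxna4, Plxna1 and Sema3f control pool 3 lies next to the exposed pools.

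Sema7a, the lipid-anchored semaphorin, had 92.2, 135 and 185 CPM in the control pools (in the order 1, 2, 3, as throughout) and 926 and 777 CPM in the exposed ones (pools 1 and 3). The lower exposed pool was thus far above the highest control pool. Its raw counts went from between 4009 and 8538 to 39708 and 32460. The log2 fold change was 2.63 (SE 0.285, adjusted p = 0.00914), a 6.19-fold ratio of means, and it ranked 60th by p among all genes tested. By level it stood between ranks 824 and 1838 of all genes in the control pools and at ranks 125 and 147 in the exposed pools. With spike-ins as the scale the log2 fold change was 2.31 (adjusted p = 0.103), the call being lost. In a bulk pool, a different number of cells with the transcript and a different amount of it per cell cannot be told apart, here and for every gene that follows.

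Sema3e, a secreted semaphorin that binds Plxnd1 directly, without a neuropilin, had 52.6, 55.3 and 63.0 CPM in the control pools and 97.4 and 186 CPM after exposure. Both exposed pools were above all control pools but differed from each other by about as much as their mean differed from the control mean. Its log2 fold change was 1.32 (SE 0.288, adjusted p = 0.0702). The call was lost without control pool 1 (adjusted p = 0.135), without control pool 2 (0.191) and without exposed pool 3 (0.247), where the log2 fold change was 0.78, with spike-in scaling (adjusted p = 1.00), with a filter of 10 counts (0.102), with filterByExpr (0.157) and with glmTreat (0.189).

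The 250 bases before the start of both genes that rose are shown to compare their promoters, 5′ to 3′ on the plus strand of GRCm38.p6, from RefSeq, with matches to the GC box in capitals. Sema7a lies on chromosome 9, its upstream stretch at chr9:57939862-57940111, and Sema3e on chromosome 5, with chr5:14025026-14025275.
Sema7a: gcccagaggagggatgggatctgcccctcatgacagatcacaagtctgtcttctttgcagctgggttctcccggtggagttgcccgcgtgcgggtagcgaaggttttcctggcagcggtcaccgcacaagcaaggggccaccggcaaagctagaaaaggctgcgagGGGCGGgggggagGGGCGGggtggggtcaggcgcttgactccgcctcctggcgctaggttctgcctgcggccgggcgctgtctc
Sema3e: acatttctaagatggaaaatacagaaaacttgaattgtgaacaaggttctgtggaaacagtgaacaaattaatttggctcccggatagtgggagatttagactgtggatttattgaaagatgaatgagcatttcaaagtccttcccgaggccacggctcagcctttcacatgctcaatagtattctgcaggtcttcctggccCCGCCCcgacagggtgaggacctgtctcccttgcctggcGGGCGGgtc
Each stretch holds the GC box (GGGCGG, or its reverse complement) at 2 places, and the GC content is 66.4% for Sema7a and 48.0% for Sema3e. The GC box was added to the search after the sequences were seen. In windows from 250 bases before to 50 after the start, 15 of the 20 windows of tested genes held it (12 of the 14 genes with a RefSeq entry), and 35.7% of all 32851 windows did. Of letters linked to activity-dependent transcription, the full cAMP response element (TGACGTCA, 1.79% of all windows) was in no tested gene's window. Its 5-letter core (TGACG, contained in the full element, 20.8%) was in that of Sema7a alone, 41 bases after the start and so outside the stretch shown. The AP-1 site (TGANTCA, 7.81%) was in the windows of Sema4c and Sema4d. The EBF core (CCCNNGGG, 13.7%), named for factors of OSN genes, was in those of 5 tested genes. All motifs were searched on both strands, and a match is a string of letters only.

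Among the other class 3 ligands, Sema3f had the largest negative estimate of all 18. Control values were 64.4, 78.6 and 15.9 CPM, and those after exposure 2.17 and 8.93 CPM. The exposed pools were below all control pools, and control pool 3 lay nearer to them than to the other controls. Sema3f entered the test through the control pools alone, where it was high. Its place among the genes with lower exposed pools, and the calls of Sema3f given next, are thus a description only. The log2 fold change of -3.25 (SE 0.929, adjusted p = 0.145) was not called. Without control pool 3 it was -3.68 and called (adjusted p = 0.0318), as it also was by DESeq2 (-3.24, adjusted p = 5.05e-04). Sema3a was at 19.3, 5.14 and 1.95 CPM in control and 6.86 and 7.28 CPM in exposed pools, which overlapped, with a log2 fold change of -0.32 (SE 0.906) that turned positive without control pool 1.

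Further secreted genes stayed below the count limit. Sema3d had 36, 0 and 19 counts in control and none in exposed pools, Sema3b 13 counts in control pool 2 only, Sema3c a single count in exposed pool 1, and Sema3g none. A count of 0 allows up to 3 counts, or 0.0607 to 0.0718 CPM depending on the library.

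Of the class 4 semaphorins, transmembrane ligands of class B plexins, 5 were tested and edgeR called none. Sema4d went from 169, 156 and 138 CPM in control to 213 and 225 CPM in exposed pools with no overlap (log2 fold change 0.50, SE 0.155, adjusted p = 0.154). It was called by DESeq2 (0.52, adjusted p = 0.0307), but not with the fold change shrunk by apeglm (0.46, under the limit of 0.5). Sema4b was at 11.1, 10.9 and 18.2 CPM against 5.92 and 10.7 CPM, also without overlap but with a narrow gap (log2 fold change -0.69, SE 0.471, adjusted p = 0.472). Sema4f had 32.8, 28.7 and 11.6 CPM against 10.2 and 15.0 CPM, and overlapped because of control pool 3. Sema4c and Sema4g were within their control range, with log2 fold changes of 0.06 (SE 0.281) and 0.11 (SE 0.509), both of which were negative under spike-in scaling and without control pool 1. Reads on the exon bases that Sema4c shares with an antisense gene, 7.27% of its exons, could not be assigned by strand.

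Sema4a, known for its part in immune cells, was not tested. It had 635 counts in exposed pool 1 and none in exposed pool 3, and the controls had 154, 50 and 0. The pools with most Sema4a, control pool 1 and exposed pool 1, were those with the highest summed level of the 9 myeloid markers (346 and 293 TPM, against 41.9 to 126 TPM in the other 3 pools). The part of these markers in the Sema4a counts was not tested.

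The class 6 ligands of class A plexins went in opposite directions in estimate, and neither was called. Sema6a had 80.3, 67.2 and 120 CPM in control and 154 and 189 CPM in exposed pools, without overlap (log2 fold change 0.94, SE 0.268, adjusted p = 0.130). It was called by DESeq2 (0.96, adjusted p = 0.0216) and without control pool 3 (1.23, adjusted p = 0.0385). Of the 17 alternative settings given below, 14 did not call Sema6a. Sema6c had 59.0, 86.3 and 48.6 CPM against 13.6 and 51.0 CPM, where exposed pool 3 lay inside the control range (log2 fold change -1.002, SE 0.579, adjusted p = 0.403). Sema6b and Sema6d did not reach the count limit. Sema6b was at 170, 97 and 25 counts in the controls and at 0 after exposure in both pools, at least 30.2-fold lower for the mean of the control pools against 3 counts per library, and at least 17.7-fold without control pool 1. Sema6d had 149, 144 and 0 counts against 47 and 45. Of class 5, Sema5a had 0, 38 and 29 counts in control and none in exposed pools, and Sema5b had none in any pool.

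**Figure D3:**
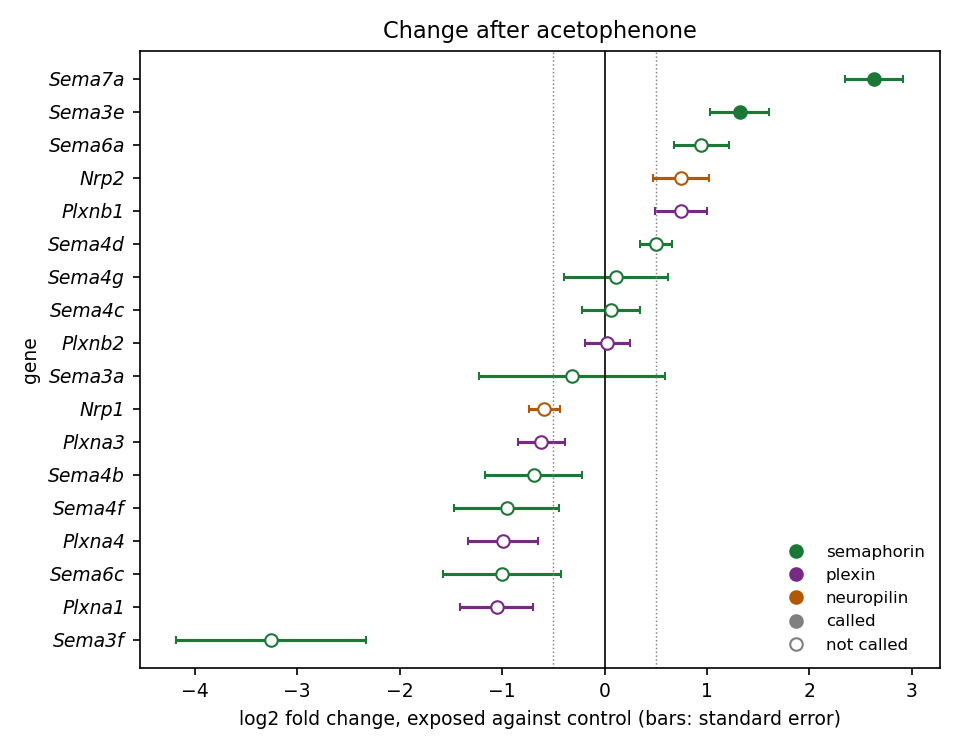
Log2 fold change of the 18 genes tested, exposed against control, with bars of 1 standard error from edgeR. Filled points were called (Sema7a and Sema3e), open points were not, and dotted lines mark the limit of 0.5. All 3 class A plexins lie to the left of 0 and Plxnb1 to the right.

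The class A plexins, signalling partners of neuropilins and receptors of class 6, had 3 of 4 genes above the count limit. All 3 had exposed pools below all control pools, as did 19.6% of all tested genes, and none was called by edgeR. Plxna4 had 628, 774 and 343 CPM in control and 266 and 319 CPM in exposed pools (log2 fold change -0.99, SE 0.343, adjusted p = 0.199). Plxna1 had 133, 137 and 64.6 CPM against 47.1 and 60.3 CPM (log2 fold change -1.05, SE 0.359, adjusted p = 0.185). In both genes control pool 3 was about as low as the exposed pools. DESeq2 called both on all pools, at -0.98 (adjusted p = 0.0348) for Plxna4 and -1.04 (adjusted p = 0.0495) for Plxna1. Without control pool 3 edgeR called them too, at -1.25 (adjusted p = 0.0195) for Plxna4 and -1.32 (adjusted p = 0.0340) for Plxna1. Leaving out this pool raised the lower calls over all tested genes from 186 to 409. Without control pool 1 or 2 edgeR called neither gene. The adjusted p was 0.334 and 0.341 for Plxna4, and 0.305 and 0.354 for Plxna1. Plxna3 had 277, 440 and 356 CPM against 203 and 263 CPM (log2 fold change -0.62, SE 0.229, adjusted p = 0.212). Plxna2 was at 0 to 7 counts in the control pools and at 0 and 82 in the exposed pools. For Plxna1, 10.7% of the exon bases are shared with an antisense gene that had at most 11 counts in any pool.

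The 3 antisense genes within Plxna4 were below the count limit. Plxna4os2 was at 125, 61 and 11 counts in control and at 0 in both exposed pools (at least 20.4-fold lower for the mean of the control pools against 3 counts per library, and at least 10.4-fold without control pool 1, a check added after seeing the data), Plxna4os1 had 78, 0 and 0 against 0 and 21, and Plxna4os3 had 4 counts or fewer in every pool. Reads were counted without strand, and reads on the 110 bases that Plxna4os3 shares with a Plxna4 exon could not be assigned to either. The other antisense genes share no exon base with Plxna4 but lie within its span. Counting without strand cannot tell unspliced Plxna4 reads there from reads of these genes. The part of such reads in their counts was not tested.

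In class B, the receptors of class 4 semaphorins, Plxnb1 had 61.4, 94.95 and 103 CPM in control and 158 and 131 CPM in exposed pools, without overlap (log2 fold change 0.74, SE 0.256, adjusted p = 0.188). DESeq2 called Plxnb1 (0.76, adjusted p = 0.0713), and 15 of the 17 alternative settings given below did not. Plxnb2 stayed within its control range, at 334, 462 and 510 CPM against 380 and 506 CPM. Its log2 fold change of 0.03 (SE 0.219) changed sign under spike-in scaling, under library totals, without control pool 1 and without exposed pool 3. Plxnb3 had 0, 5 and 102 counts in control and none in exposed pools.

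Plxnc1 and Plxnd1, the receptors of the ligands that rose, were both under the count limit. Plxnc1, the plexin of Sema7a, had 2, 77 and 35 counts in control and 48 and 103 in exposed pools, which overlapped. Itgb1, the integrin chain that also binds Sema7a, was chosen for this role after its values were seen. It had 89.2, 136 and 103 CPM in control and 115 and 181 CPM in exposed pools (log2 fold change 0.43, SE 0.267, adjusted p = 0.430). Plxnd1, the receptor of Sema3e, had 413, 68 and 263 counts in control and 0 and 23 in exposed pools. It missed the test because control pool 2 was below 143 counts, and its exposed pools were below all control pools.

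Of the neuropilins, Nrp1 had 245, 208 and 223 CPM in control and 148 and 152 CPM in exposed pools. The control pools and the exposed pools were each tight and did not overlap. The log2 fold change was -0.59 (SE 0.151), that is 66.6% of the control mean, and the adjusted p of 0.108 missed the limit. DESeq2 called it (-0.57, adjusted p = 0.00812), as did edgeR without TMM (-0.63, adjusted p = 0.0965). Of the 17 alternative settings given below, 14 did not call Nrp1. Nrp2 had 45.2, 64.6 and 81.5 CPM against 113 and 101 CPM, in the other direction and also without overlap (log2 fold change 0.74, SE 0.273, adjusted p = 0.207). DESeq2 called Nrp2 (0.76, adjusted p = 0.0962), and 15 of the 17 alternatives did not.

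Within each library, the makeup of the 3 families was then set out in TPM. Percentages and ratios within a library do not depend on the scaling between pools, but summed TPM compared across pools does. Nrp1 took 86.8%, 79.6% and 76.8% of the neuropilin sum in the controls and 61.3% and 64.6% after exposure. The exact two-sided permutation test gave p = 0.1, the smallest that 3 pools against 2 can give. The ratio of Nrp1 to Nrp2 was 6.57, 3.90 and 3.31 in control and 1.58 and 1.83 in exposed pools (exact permutation p = 0.2). These are a pair of views of the same 2 genes, with no overlap of the conditions in either.

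Sema7a made up 26.4%, 33.3% and 45.6% of the summed semaphorin level in control and 79.1% and 70.9% in exposed pools (exact permutation p = 0.1). The sum of the other 19 semaphorins was 251, 298 and 232 TPM against 221 and 305 TPM (exact permutation p = 1). On the TPM scale, the gap in the semaphorin sum thus lay in Sema7a. Plxna1, Plxna3 and Plxna4 together took 64.9%, 64.2% and 49.5% of the plexin sum in control and 43.05% and 44.03% in exposed pools (exact permutation p = 0.2). These are 5 of 12 such quantities tested, and with 10 assignments of pools none could go below the p of 0.1 in this exact test. The smallest Benjamini-Hochberg adjusted p over the 12 was 0.24.

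**Figure D4:**
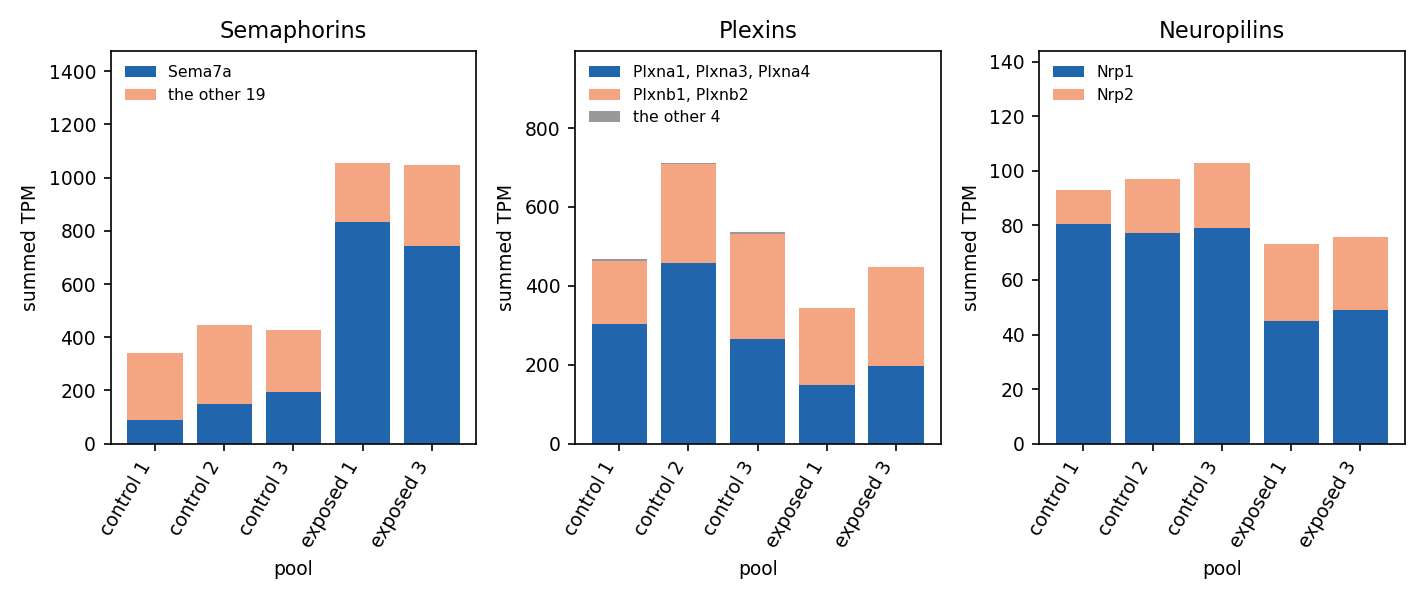
Summed TPM of the 20 semaphorins, 9 plexins (antisense genes left out) and 2 neuropilins in each pool, with bars from 0 divided by gene. Sema7a fills most of the semaphorin bar in both exposed pools, the class A plexins take a smaller part of the plexin bar there and in control pool 3, and the Nrp1 part of the neuropilin bar is smaller in both exposed pools.

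Other genes of the pathway were read from a list of 68, covering co-receptors, small GTPases and their regulators, kinases, and effectors on the cytoskeleton. Of these 46 were tested, 1 was called higher (2.17%, against 3.43% of all tested genes) and none lower (against 1.86%), with 12 at an unadjusted p under 0.05 (19.2% of all) and, by DESeq2, 7 called higher and 4 lower (7.24% and 7.66% of all). The gene called was Pak3, a kinase that acts downstream of Rac and Cdc42 on actin, with 144, 157 and 168 CPM in control and 314 and 339 CPM after exposure. The log2 fold change of Pak3 was 1.06 (SE 0.144, adjusted p = 0.0153), and the call was lost under spike-in scaling (0.85) and without exposed pool 1 (1.12, adjusted p = 0.124). The median log2 fold change of the 46 was -0.12. The collapsin response mediators, cytosolic transducers of Sema3a, were looked at after their values were seen, and none was called. Dpysl3 had 35.2, 63.5 and 66.2 CPM against 168 and 106 CPM (adjusted p = 0.104). Crmp1 had 147, 161 and 163 CPM against 111 and 106 CPM (adjusted p = 0.137) and Dpysl5 167, 186 and 199 CPM against 101 and 128 CPM (adjusted p = 0.112). These 3 did not overlap between conditions, Dpysl3 with the exposed pools higher and the others with them lower. Pools did not overlap for 16 of the 46 tested pathway genes either way, and for 40.0% of all tested genes. Dpysl2 overlapped, at 133, 142 and 179 CPM against 149 and 115 CPM (adjusted p = 0.648), and Dpysl4 was not tested.

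Of 41 genes of the other guidance families (ephrins and their receptors, Slit, Robo and netrin genes), 11 were tested, 1 was called higher and 2 lower. These were Epha7, a receptor of A-type ephrins (log2 fold change 1.56, SE 0.224, adjusted p = 0.0184), and the ephrins Efna3 (-2.18, SE 0.211, adjusted p = 0.00496) and Efna5 (-1.62, SE 0.210, adjusted p = 0.0127). The share called, 27.3% against 5.29% of all tested genes, rests on these 3 genes and was not tested against the 2 of 18 above.

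Marker levels in both conditions were as follows. Among the 9 mature OSN markers, 3 were called lower, namely Cnga2, Cnga4 and Rtp1, where 1.86% of all tested genes were. Among the 5 immature markers Gap43 was called higher, where 3.43% of all tested genes were. The other 4 were not called, with positive estimates for Gng8 and Stmn1 and negative ones for Hdac2 and Dpysl5, which is also in the pathway list. The summed level of the 2 dorsal markers was 7420 to 8192 TPM in control and 4144 to 4846 TPM in exposed pools, with Nqo1 called lower, and that of the ventral markers 3.53 to 6.88 against 5.03 to 6.05 TPM. Erythroid markers summed to 47.4 to 1208 TPM in control and 21.4 to 46.6 TPM in exposed pools, and the 3 Bowman gland markers to 12.5 to 15.9 against 7.25 to 7.74 TPM. The part of any of these in the changes of Sema7a, Sema3e and the other genes was not tested. Sustentacular (154 to 254 against 124 to 322 TPM), endothelial (1.71 to 4.26 against 2.76 to 5.15 TPM), fibroblast (4.92 to 48.3 against 0.766 to 7.22 TPM) and glial markers (1.48 to 5.34 against 1.96 to 4.62 TPM) overlapped between conditions, as did the microvillar (at most 30.4 TPM), basal and precursor (at most 8.66 TPM) and horizontal basal markers (at most 2.98 TPM). Lymphoid markers stayed at or below 0.155 TPM in every pool. Frzb, Cdh5, Tek, Cd3g and Cd79a were at 3 counts or fewer in every library.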

How the data were processed

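RNA of sorted Olfr151 neurons was reverse transcribed and amplified with the SMARTer Ultra Low kit and sequenced from Nextera XT libraries. The authors mapped the reads (STAR 2.7.0a, GRCm38, per the submitters' processing notes) and deposited raw counts per gene from featureCounts 1.6.3, whole numbers with no filter or normalization. Per the file headers, counting ignored strand and left out reads that map to several places or overlap 2 genes. Symbols came from GENCODE M21 for 55144 of the 55411 genes, and the ERCC spike-ins (0.249% to 0.631% of counts) were kept apart.

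Tests used edgeR 4.0.16 under R 4.3.3 (TMM, robust glmQLFit, glmQLFTest), with condition as the only term, 3 control and 2 exposed libraries, and the 10024 genes that had 143 counts or more in each library of 1 condition or both. The value 143 is the lowest minimum of the density of log2 counts between log2 values of 3 and 10. The study's procedure also took a local minimum of the count density, but its description gives no such bounds. Standard errors are the log2 fold change divided by the root of F. TPM was computed from counts and the deposited exon lengths without the spike-ins. Marker, pathway and guidance lists, and the genes described, were chosen with earlier results of these data known. All genes of the 3 families are accounted for, and of the pathway list those called are named. Pools are the replicates. Mice of both conditions were processed on each day of the experiment, so days may act as blocks, but whether a pool's number marks its day is not given. DESeq2 1.42.0 with apeglm 1.24.0, scalings, filters and left-out pools served as the 17 alternatives. The procedure was tested on simulated counts. TPM was summed in Python 3.11.15 with pandas 2.3.3. Intervals of sampling beyond these pools cannot be given, and a limit for a count of 0 covers counting error only. The values of some single marker genes are not reported here.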

Additional observations from a re-analysis of the deposited data

How the results depend on the processing

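Under 17 alternatives the 2 family genes called higher became 6 with DESeq2 (5 with fold changes shrunk by apeglm), 1 with a filter of 10 counts, with filterByExpr, at an adjusted p under 0.05 and with glmTreat, 0 with spike-in scaling, and 1 to 3 when a pool was left out. The 0 called lower became 4 with DESeq2 in both forms, 1 with spike-in scaling and 1 with library totals. When a control pool was left out they became 0 to 3, the 3 being Sema3f, Plxna4 and Plxna1 without control pool 3. In that fit the lower calls over all tested genes also went from 186 to 409. Sema3f, which entered the test through the control pools alone, is in the 4 and the 3 and is the 1 with spike-in scaling. Of the pathway list, the 1 called higher became 7 with DESeq2 in both forms, 0 with spike-in scaling and 0 to 3 when a pool was left out, and the 0 called lower became 4 (3 with apeglm), 1 and 0 to 4. With the pool number as a replicate block, 0 family genes and 0 pathway genes were called higher and Sema7a had a log2 fold change of 2.7 (adjusted p = 0.187) and Sema3e of 1.23 (adjusted p = 0.242). Deviations of same-numbered pools from their condition means correlated with r of 0.056 and -0.079. The deviations of the 2 exposed pools mirror each other by construction, so these values cannot tell whether the number marks a pairing. The main fit did not use the number. Under the block, 11 of the 530 calls over all genes remained, with no other call made. The block fit leaves little to estimate the spread from, and control pool 2 has no exposed pool of its number. Fewer calls can follow from this alone.

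Over all genes DESeq2 made 726 higher and 768 lower calls against 344 and 186, 48.6% of calls higher in place of 64.9%, while without control pool 3 it was 46.0%, without exposed pool 1 78.9% of 90 calls, and without exposed pool 3 53.5% of 269. Library totals gave 59.4% and no other scaling moved this by 10 points. Spike-in scaling moved the all-gene median of the log2 fold change by -0.21, and relative to that median Sema7a was at 2.54 and Sema3e at 1.44. The sign reversed for Sema4c (-0.19 with spike-ins, -0.095 to 0.24 over left-out pools, lowest without control pool 1), Sema4g (-0.22 and -0.14 to 0.35, likewise), Plxnb2 (-0.20 with spike-ins, -0.016 with library totals, -0.19 to 0.22 over left-out pools, negative without control pool 1 or exposed pool 3) and Sema3a (0.19 with the replicate block, -0.78 to 0.99 over left-out pools, positive without control pool 1). Of 395 values recomputed, 10 changed sign, 36 moved toward more calls and 26 toward fewer. The cause of the differences was not tested. Without a filter on low counts, 2 family genes were called higher and 0 lower.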
